A study of Mus musculus with 21 samples.

Results

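The comparison was between the left ventricle of mice under pressure overload and that of sham-operated mice, in mature microRNAs counted by small RNA sequencing. It took 10 of the 21 libraries of the study, 1 library per mouse. The Sham group held 5 C57BL/6J mice with sham surgery, and the TAC group held 5 C57BL/6J mice with transverse aortic constriction, an operation that narrows the aortic arch so that the left ventricle pumps against a raised pressure. No mouse of either group received a drug. The other mice of the study had the same constriction and an inhibitor of phosphodiesterase 5A or 9A, and are not described here. RNA came from flash-frozen left ventricular myocardium, and each mouse has its own ear tag, so the 5 libraries of a group are separate animals. The labels state neither the ages of the mice nor the time from surgery to collection in these undrugged groups. All microRNAs that passed a filter on low counts were members of the comparison, 507 of the 763 with a count in these libraries.

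A microRNA is cut from a hairpin in its precursor and is loaded into an Argonaute protein, where bases 2 to 8 from its 5′ end, the seed, pair with messenger RNAs and lower their translation and stability. A hairpin has a 5p and a 3p arm, and as a rule one of them is kept far more often than the other. In the heart, miR-1 and miR-133 are the abundant microRNAs of muscle, and a small family is carried in introns of the myosin heavy chain genes: miR-208a in Myh6, miR-208b in Myh7 and miR-499 in Myh7b. In the adult mouse ventricle Myh6 is the main heavy chain, and pressure overload is known to raise Myh7, the fetal chain. Fibroblasts carry miR-199 and miR-214, and miR-21, miR-29 and miR-30 have been studied for their roles in cardiac fibrosis.

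The sequences below are those on which the results turn, from the RefSeq microRNA table for GRCm38.p6, which held 439 of the 507 microRNAs tested. The seed is in capitals. The first 3 are the myosin intron microRNAs, of which miR-208a-3p and miR-208b-3p share a seed.
miR-208b-3p: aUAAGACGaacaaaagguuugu
miR-208a-3p: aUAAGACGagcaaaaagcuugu
miR-499-5p: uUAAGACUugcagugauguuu

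The next set holds microRNAs that rose and are described one by one, and ends with both arms of miR-455, which moved in opposite directions.
miR-199a-3p/miR-199b-3p: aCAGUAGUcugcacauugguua
miR-199a-5p: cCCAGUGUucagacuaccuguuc
miR-214-3p: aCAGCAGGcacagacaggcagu
miR-21a-5p: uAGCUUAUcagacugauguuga
miR-27b-3p: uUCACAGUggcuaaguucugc
miR-127-3p: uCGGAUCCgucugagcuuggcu
miR-34b-5p: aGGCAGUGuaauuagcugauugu
miR-146b-5p: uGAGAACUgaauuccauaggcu
miR-1247-5p: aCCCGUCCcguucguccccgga
miR-455-3p: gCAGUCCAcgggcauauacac
miR-455-5p: uAUGUGCCuuuggacuacaucg

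The last set shows seeds shared by several members: a seed whose members all rose (miR-99 and miR-100), one of which 2 members rose (miR-195 and miR-497), and those of the miR-30 and miR-29 families, of which some members fell.
miR-99a-5p: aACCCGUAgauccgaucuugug
miR-99b-5p: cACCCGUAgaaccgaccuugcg
miR-100-5p: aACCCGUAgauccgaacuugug
miR-195a-5p: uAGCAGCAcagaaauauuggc
miR-497a-5p: cAGCAGCAcacugugguuugua
miR-30e-5p: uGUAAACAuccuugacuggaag
miR-30c-5p: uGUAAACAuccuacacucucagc
miR-30a-5p: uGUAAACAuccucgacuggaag
miR-29c-3p: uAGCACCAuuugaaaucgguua
miR-29a-3p: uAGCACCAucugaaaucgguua

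Sham libraries held 3766517 to 7490436 counts and TAC libraries 5373960 to 8497792, and the group means did not differ beyond their spread (exact permutation test, two-sided, p = 0.302). Levels are given as CPM, the counts of each library brought to a common total and scaled by TMM, and 3 counts, the limit that a count of 0 allows, came to between 0.353 and 0.797 CPM before that scaling. Such limits cover counting error only, since the reads carry no molecular identifiers. In addition, 17 microRNAs were listed at 0 in some of the 10 libraries and at 50 counts or more in all the others, so that a 0 in this table is not always a low count. Of those 17, 6 were tested and none passed, and 2 of the called microRNAs had a 0 in any library. The 10 most abundant microRNAs took 72.4% ± 0.887 (SD, n = 5) of the counts in Sham and 70.7% ± 1.28 (SD, n = 5) in TAC (exact permutation test, two-sided, p = 0.0476, adjusted over 3 such tests to 0.143, and to 0.0476 without TAC 5; the smallest p possible is 0.00794). In the first principal component of log2 CPM, with 30.99% of the variance, the Sham libraries lay between -15.94 and -7.22 and the TAC libraries between 6.92 and 14.74, so the groups did not overlap.

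Between TAC and Sham 98 of the 507 microRNAs differed (edgeR quasi-likelihood test, Benjamini-Hochberg adjusted p under 0.05). Of these 75 were higher in TAC, 14.8% of those tested, and 23 were lower, 4.54%. Both directions together made up 19.3%. Among the 75, 28 were more than 2-fold higher, and among the 23, 2 were more than 2-fold lower. The 75 higher microRNAs together held 6.54% to 7.27% of the counts in Sham and 11.1% to 16.6% in TAC. The median absolute log2 fold change was 0.88 in the higher and 0.69 in the lower set, and the median log2 fold change of all 507 was 0.05. Every TAC library lay above every Sham library for 62 microRNAs (12.2% of those tested) and below for 29 (5.72%). Of the called microRNAs, 57 of the higher and 15 of the lower were separated in this way. The size of the lower set varied with the scaling, the filter and the fitting program. The calls were 63 higher and 40 lower with RLE factors, 67 and 19 with no factors, and 70 and 50 with DESeq2. They were 51 and 62 with upper-quartile scaling, which moved the median of all microRNAs to -0.13. They were 58 and 44 among microRNAs of at least 10 CPM, with TMM factors computed anew on these, so that filter and scaling changed together. Lower calls numbered 11 when Sham 3 was left out. A fit of all 21 libraries with the drug groups gave 12 higher and 1 lower, and 11 of the 72 called microRNAs followed through all settings, among them miR-208b-3p, miR-199a-5p, miR-214-3p, miR-140-3p and miR-9-5p, passed under every one. All 98 called microRNAs kept their direction under each of these settings in which they were tested.

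**Figure D1:**
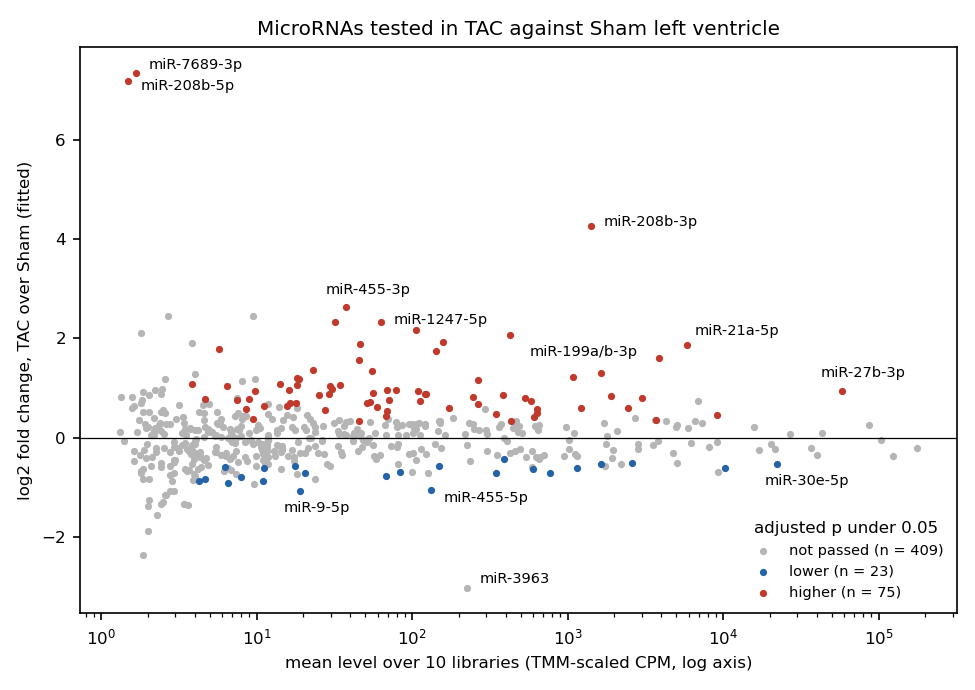
Each point is a microRNA tested, with its mean TMM-scaled CPM over the 10 libraries on a log axis and its fitted log2 fold change of TAC over Sham; red points are the 75 higher, blue points the 23 lower and grey points those that did not pass. The higher set reaches log2 fold changes of 4.26 in miR-208b-3p, while the lower set reaches -1.08 in miR-9-5p, and miR-208b-5p and miR-7689-3p at the top left have no count in any Sham library.

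Ear tags fall in the 100s (Sham 1 to 3, TAC 1 and 2), the 600s (Sham 4 and 5, TAC 4 and 5) and the 500s (TAC 3 alone). All 98 called microRNAs differed in the same direction within the 100s and within the 600s. They were called from these same libraries, so this agreement is not an independent check. Whether the tag ranges mark batches is not stated in the labels.

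The microRNA with the largest change that had counts in every library was miR-208b-3p, from the intron of the myosin gene Myh7 (GRCm38, chr14:54975700-54975776, minus strand). Its level was 155, 131, 105, 154 and 154 CPM in Sham 1 to 5 and 3050, 1422, 3384, 4011 and 1511 CPM in TAC 1 to 5. It was thus low in every Sham heart, and TAC 2 and TAC 5, the lowest TAC hearts, were still far above them. The rise was 19.1-fold (log2 4.26 ± 0.32, standard error; adjusted p = 1.16e-05), and it passed under every alternative tried. The opposite arm, miR-208b-5p, was listed at 0 in all 5 Sham libraries and was at 3.20, 3.12, 2.71, 3.47 and 2.39 CPM in TAC. The TAC mean was 5.25-fold above the mean of the 3-count limits of the Sham libraries, a bound only if each 0 was a low count. miR-208b-5p passed the filter through its TAC counts alone, so its adjusted p of 0.00462 (edgeR) is not independent support. Its call was lost with a replicate block (adjusted p = 0.166).

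The other 2 myosin intron microRNAs did not rise. miR-499-5p, from Myh7b (chr2:155622880-155622958), was at 1169, 877, 1015, 930 and 806 CPM in Sham and at 404, 718, 437, 515 and 864 CPM in TAC. It fell by 0.71 ± 0.21 on the log2 scale (adjusted p = 0.0381) with TAC 5 inside the Sham range, and the call was lost when Sham 1, 2, 3 or 4 or TAC 1, 3 or 4 was left out (adjusted p up to 0.104). miR-208a-3p, from Myh6 (chr14:54949060-54949142), was at 433 to 955 CPM in Sham and 364 to 612 CPM in TAC, a log2 difference of -0.58 ± 0.21 that did not pass (adjusted p = 0.073). It passed as lower with RLE and upper-quartile scaling, with DESeq2, among microRNAs of at least 10 CPM, and without Sham 2 or TAC 4 (adjusted p down to 0.0134). In these libraries the 2 microRNAs with the seed UAAGACG, miR-208a-3p and miR-208b-3p, were therefore at 708 ± 196 and 140 ± 21.9 CPM in Sham and at 473 ± 92.9 and 2676 ± 1157 CPM in TAC (means ± SD, n = 5).

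Of the 11 heart muscle microRNAs tested, 2 rose, both from miR-208b, and 3 fell, beside 14.8% higher and 4.54% lower over all microRNAs, with a median log2 fold change of -0.50 against 0.05 over all microRNAs. Of the 2 that rose, miR-208b-5p entered the test through its TAC counts alone. miR-133a-5p was at 500, 402, 443, 419 and 388 CPM in Sham and at 152, 316, 252, 268 and 319 CPM in TAC. It fell by 0.72 ± 0.18 on the log2 scale (adjusted p = 0.0174) and TAC 1 was the lowest heart. Its call was lost without Sham 1 or Sham 3 (adjusted p up to 0.0633). miR-133b-3p fell by 0.51 ± 0.15 (adjusted p = 0.0379), a call lost without Sham 1, 2 or 3 or TAC 1, 3, 4 or 5 (up to 0.0838). Without Sham 1 or without Sham 3, no member of the list passed as lower, and without TAC 1 or TAC 3, 1 did; the count was 0 with ear tag range as a covariate and 6 with upper-quartile scaling. The abundant strands did not pass in the main fit. miR-1a-3p was at 5921 ± 1116 CPM in Sham and 4173 ± 938 in TAC (SD, n = 5, log2 -0.50 ± 0.19, adjusted p = 0.0815). miR-133a-3p was at 139283 ± 10736 and 107396 ± 27638 CPM (log2 -0.38 ± 0.17, adjusted p = 0.153). miR-1a-3p passed as lower with upper-quartile scaling, total counts, DESeq2, among microRNAs of at least 10 CPM and without Sham 5 (adjusted p down to 0.0189), and miR-133a-3p among microRNAs of at least 10 CPM (0.04995). For miR-133a-3p the spread among TAC hearts was wide, from 73455 CPM in TAC 1 to 136415 CPM in TAC 2. miR-206-3p, a skeletal muscle relative of miR-1, had no count in any of the 10 libraries. In bulk tissue, fewer cells of a type and less RNA per cell cannot be told apart.

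**Figure D2:**
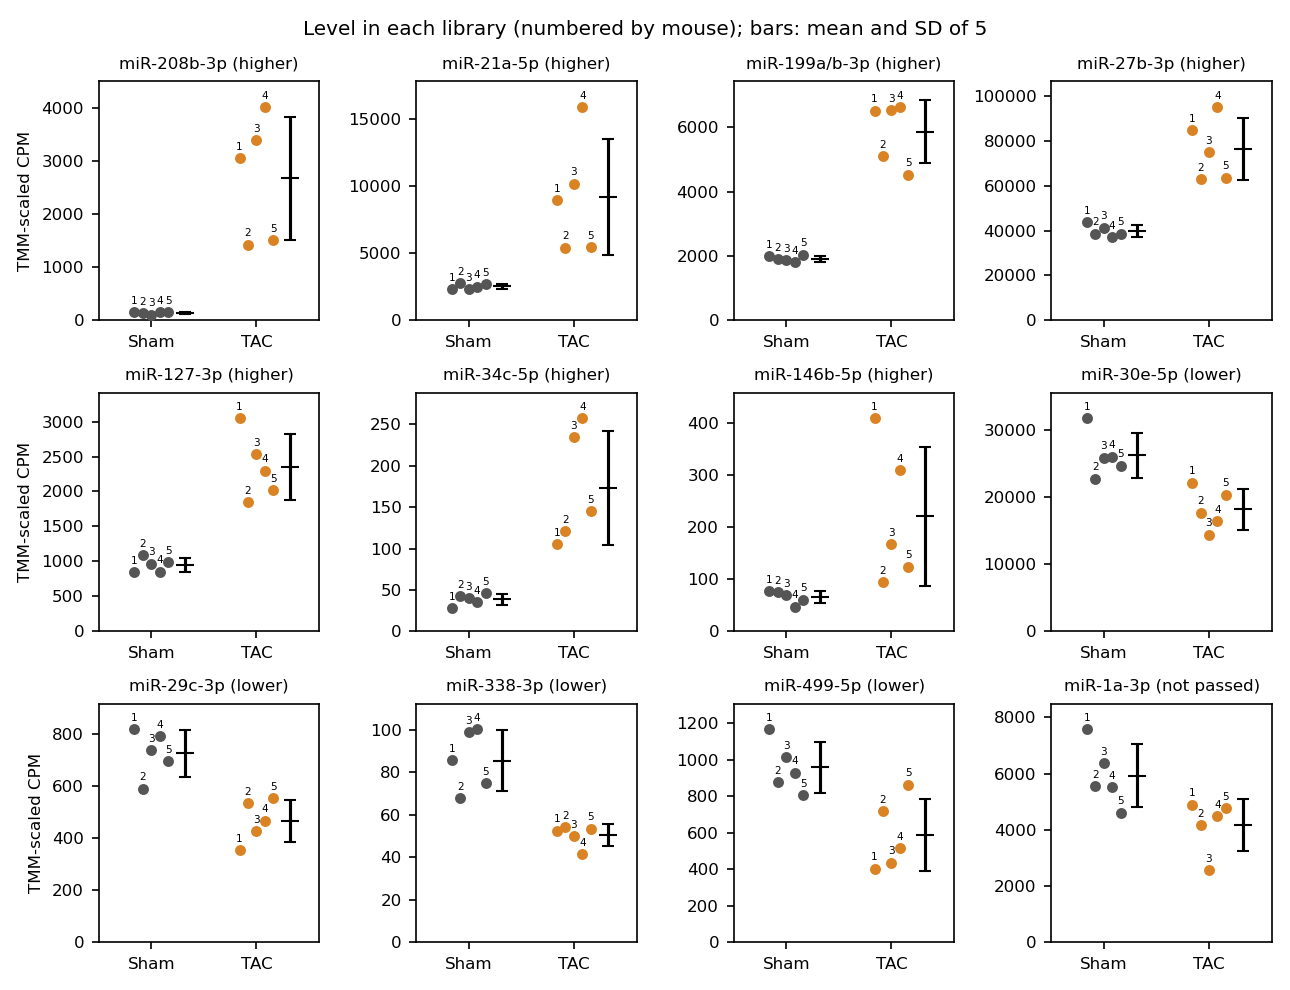
Each panel shows the TMM-scaled CPM of 1 microRNA in the 5 Sham and 5 TAC libraries, numbered by mouse, with the mean and SD of each group beside the points and the axis starting at 0. The TAC points lie above all Sham points for the 7 higher microRNAs, TAC 2 and TAC 5 are among the lowest TAC points for miR-208b-3p and miR-21a-5p, and the groups overlap for miR-499-5p and miR-1a-3p.

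All 5 stromal microRNAs of the miR-199 and miR-214 hairpins rose, beside 14.8% higher over all microRNAs. Their median log2 fold change was 1.89 against 0.05 over all microRNAs. The shared strand miR-199a-3p/miR-199b-3p, whose reads cannot be assigned to one of its hairpins, was at 1989, 1894, 1864, 1800 and 2041 CPM in Sham and at 6509, 5109, 6519, 6624 and 4525 CPM in TAC. The Sham hearts were within a narrow range, and each TAC heart exceeded all of them (3.05-fold, log2 1.61 ± 0.12, adjusted p = 1.16e-05). miR-199a-5p averaged 164 ± 14.7 CPM in Sham and 687 ± 169 CPM in TAC, a rise of 2.07 ± 0.17 on the log2 scale (adjusted p = 1.35e-05). miR-214-3p was at 55.7, 65.3, 53.4, 71.5 and 82.1 CPM in Sham and at 158, 235, 332, 297 and 224 CPM in TAC, a 3.80-fold rise (log2 1.93 ± 0.21, adjusted p = 9.57e-05). TAC 1 was the lowest TAC heart for miR-214-3p and TAC 3 the highest. Its partner miR-214-5p rose 3.70-fold, and miR-199b-5p, from its own hairpin on chromosome 2, 2.52-fold.

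Mir199a-2 and Mir214 lie together on chromosome 1 (chr1:162217814-162223477, plus strand) in exons of Dnm3os, a noncoding RNA antisense to a dynamin gene, and all 4 of their mature microRNAs that were tested rose. miR-199a is also made from hairpins on chromosome 9 and, for the shared 3p strand, chromosome 2. The summed level of the 5 microRNAs ranged from 2072 to 2368 CPM in Sham and from 5445 to 7947 CPM in TAC.

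miR-21a-5p, the abundant strand of a hairpin in an exon of a Vmp1 transcript (chr11:86584067-86584158) and a microRNA known from activated fibroblasts, was at 2341, 2758, 2327, 2517 and 2672 CPM in Sham. In TAC it was at 8918, 5418, 10174, 15857 and 5429 CPM. All TAC hearts were above all Sham hearts, and TAC 2 and TAC 5 were again the lowest of the TAC group. The rise was 3.63-fold (log2 1.86 ± 0.27, adjusted p = 0.000754). The passenger strand miR-21a-3p rose 2.97-fold (log2 1.57 ± 0.34, adjusted p = 0.00746), although TAC 2, at 26.7 CPM, lay below Sham 5, at 27.8 CPM.

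Among the 4 microRNAs of miR-140 and miR-455, known from cartilage and matrix-producing cells, 3 rose and 1 fell. Over all microRNAs 14.8% were higher and 4.54% lower. miR-140-3p, in the gene Wwp2 (chr8:107551244-107551313), was at 708, 662, 646, 574 and 675 CPM in Sham and at 1769, 1180, 1772, 1401 and 1520 CPM in TAC (2.34-fold, log2 1.23 ± 0.13, adjusted p = 8.19e-05). miR-140-5p rose 1.95-fold, so both arms of that hairpin moved together.

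The 2 arms of miR-455 did not. miR-455-3p was at 13.6, 11.6, 7.84, 8.72 and 10.4 CPM in Sham and at 46.0, 18.2, 73.3, 102 and 85.7 CPM in TAC, a 6.25-fold rise (log2 2.63 ± 0.40, adjusted p = 0.000959). miR-455-5p was at 213.8, 110, 106, 344 and 124 CPM in Sham and at 87.1, 87.9, 118, 74.7 and 65.5 CPM in TAC, 2.07-fold lower (log2 -1.05 ± 0.33, adjusted p = 0.0458). Sham 1 and Sham 4 carried the highest 5p levels, and TAC 3 lay within the Sham range. The 3p arm made up 2.47% to 9.54% of the counts of both arms in Sham and 17.1% to 57.8% in TAC, without overlap, and in TAC 4 and TAC 5 it exceeded the 5p arm. The call of the 5p arm was lost without Sham 1, Sham 4, TAC 1, TAC 2, TAC 4 or TAC 5 (adjusted p up to 0.097). It was also lost with total counts, limma-voom, no filter, a replicate block, ear tag range as a covariate and all 21 libraries (up to 0.442). The call of the 3p arm held without each library in turn and was lost in the fit of all 21 libraries (edgeR, adjusted p = 0.052).

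**Figure D3:**
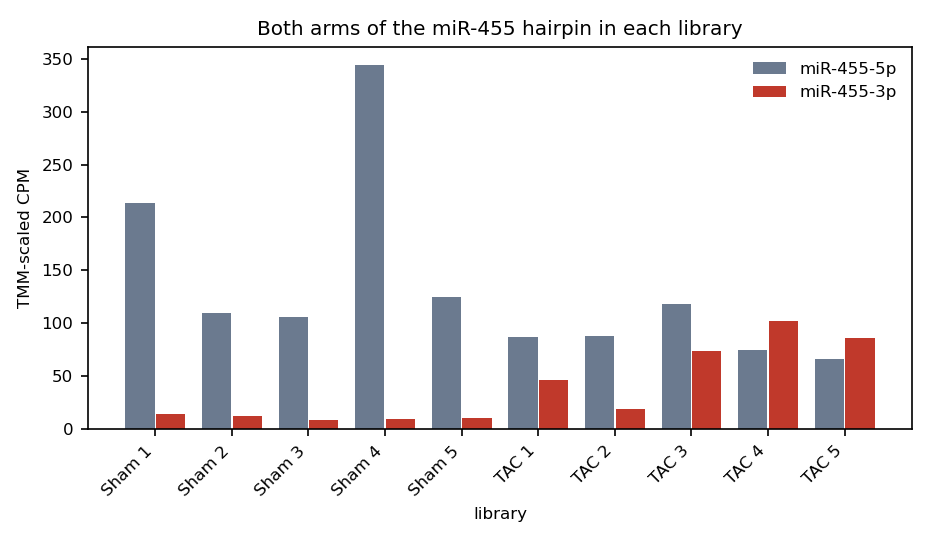
Bars give the TMM-scaled CPM of miR-455-5p (grey) and miR-455-3p (red) in each of the 10 libraries, on an axis from 0. The 3p arm stays at or below 13.6 CPM in the Sham libraries and reaches 18.2 to 102 CPM in the TAC libraries, while the 5p arm is highest in Sham 4 and Sham 1.

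Of 141 hairpins with both arms tested, that of miR-455 was the 1 whose arms were called in opposite directions. Both arms rose in 12 hairpins and fell in 2, 1 arm rose in 19 and 1 arm fell in 7, and in 100 neither passed. The 2 fold changes had the same sign in 99 hairpins, and across hairpins, which are not independent replicates, their Spearman rho was 0.561.

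The hairpins of Mir23b, Mir27b and Mir24-1 sit together on chromosome 13 (chr13:63300484-63301275), and 5 tested microRNAs were assigned to them by name. Of these miR-27b-3p, miR-27b-5p, miR-24-3p and miR-24-1-5p rose and miR-23b-5p did not pass, beside 14.8% higher over all microRNAs. miR-27b-3p, the seventh most abundant microRNA of the Sham hearts and a regulator known from lipid metabolism and hypertrophy, was at 43861, 38574, 41325, 36911 and 38561 CPM in Sham and at 84786, 62751, 74952, 94929 and 63525 CPM in TAC. Each TAC heart was clearly above the Sham range (1.91-fold, log2 0.94 ± 0.13, adjusted p = 0.000471). miR-24-3p, which a second hairpin on chromosome 8 also yields, rose by 0.85 ± 0.15 on the log2 scale, from 1358 ± 267 to 2446 ± 294 CPM (adjusted p = 0.0023), and miR-23b-3p, which has no entry in the sequence table, rose 1.74-fold from 2211 ± 339 to 3855 ± 634 CPM (adjusted p = 0.0023). The passenger strand miR-27b-5p rose 1.69-fold (adjusted p = 0.0103). The call of the scarce miR-24-1-5p (log2 0.64) was lost when any 1 library other than Sham 5 or TAC 1 was left out (adjusted p up to 0.0887).

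From the maternal copy of the imprinted Dlk1-Dio3 region of chromosome 12, a large set of microRNAs is transcribed in the embryo and in progenitor cells. A chosen list of microRNAs of this region had 45 members tested, and the counts and sums are those of the list. Of the 45, 17 rose and none fell, beside 14.8% higher and 4.54% lower over all microRNAs. In all, 41 had a positive log2 fold change, and the median was 0.55 against 0.05 over all microRNAs. Their summed level was 1404 to 1675 CPM in Sham and 2766 to 4195 CPM in TAC. miR-127-3p, the most abundant of the 45 and a strand opposite the retrotransposon-like gene Rtl1, was at 846, 1087, 970, 855 and 992 CPM in Sham and at 3049, 1847, 2530, 2297 and 2015 CPM in TAC (2.47-fold, log2 1.31 ± 0.15, adjusted p = 0.000121). No TAC heart overlapped the Sham range, and TAC 1 was the highest. miR-411-5p rose 2.25-fold from 165 ± 10.4 to 370 ± 92.6 CPM, and miR-300-3p 2.09-fold from 22.2 ± 2.49 to 46.4 ± 6.90 CPM. By position, 7 of 12 microRNAs of the 7 hairpins from Mir337 to Mir136 (chr12:109585789-109595388) and 9 of 25 of the 19 hairpins from Mir379 to Mir410 (chr12:109709060-109743795) rose. The count of 17 was 11 with upper-quartile scaling or ear tag range as a covariate and 2 in the fit of all 21 libraries, and its lowest value without a single library was 12.

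Further along the same chromosome, miR-1247-5p, from an exon of the noncoding RNA Dio3os (chr12:110278048-110278129, minus strand), was not on that list and rose 5.02-fold. Its level was 18.6, 19.6, 24.8, 24.9 and 16.9 CPM in Sham and 80.5, 91.7, 117, 159 and 77.2 CPM in TAC (log2 2.33 ± 0.22, adjusted p = 3.88e-05), so the groups were well apart. miR-6944-3p, from an intron of the drebrin gene Dbn1 (chr13:55477681-55477776), rose by a like factor, 5.02-fold, from 10.7 ± 2.41 to 53.5 ± 19.7 CPM (adjusted p = 0.000155). miR-92b-3p (1.94-fold, adjusted p = 0.000356) and miR-1983 (2.27-fold, adjusted p = 0.000374) were the remaining microRNAs with the smallest p. miR-7689-3p was listed at 0 in all Sham libraries and was at 3.6, 2.71, 4.83, 2.43 and 3.31 CPM in TAC. The TAC mean was 5.95-fold above the mean of the Sham limits, a bound only if each 0 was a low count. miR-7689-3p also passed the filter through its TAC counts alone, so its adjusted p of 0.00307 (edgeR) is not independent support. Its call was lost with a replicate block (adjusted p = 0.137).

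**Figure D4:**
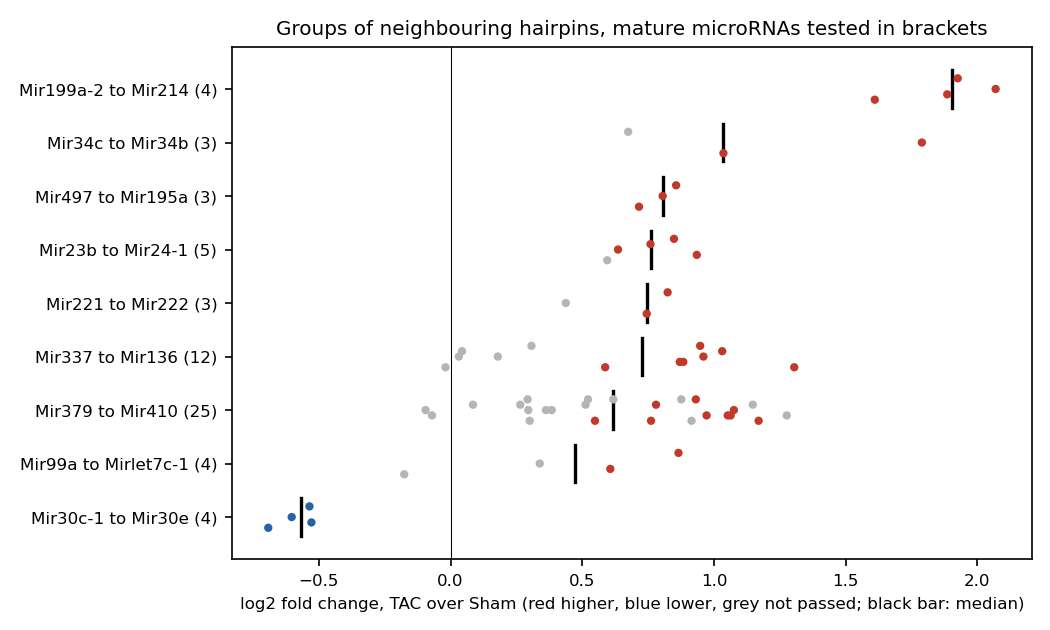
Each row is a group of hairpins on 1 strand within 10 kb of the next, with at least 3 tested and 2 called microRNAs; points give the log2 fold change of each mature microRNA (red higher, blue lower, grey not passed) and black bars the median. All 4 microRNAs of Mir199a-2 and Mir214 lie at 1.61 or above, and all 4 assigned to Mir30c-1 and Mir30e lie between -0.69 and -0.53.

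Of 6 tested strands of the miR-34 family, targets of p53 that act on cell cycle and survival genes, 3 rose, beside 14.8% higher over all microRNAs. miR-34c-5p was at 27.9, 42.6, 40.5, 35.1 and 46.5 CPM in Sham and at 105, 121, 234, 257 and 145 CPM in TAC (4.48-fold, log2 2.16 ± 0.27, adjusted p = 0.000274), with TAC 3 and TAC 4 the highest. Its neighbour on chromosome 9 (chr9:51103034-51103645), miR-34b-5p, rose 3.47-fold from 2.56 ± 0.693 to 8.86 ± 3.14 CPM (adjusted p = 0.00138). miR-34b-3p rose 2.03-fold (adjusted p = 0.0281), a call lost without Sham 1, 2 or 3 or TAC 3, 4 or 5 (up to 0.084). miR-34c-3p, from the same locus, did not pass (log2 0.67 ± 0.56, adjusted p = 0.449). miR-34a-5p, from chromosome 4, was at 160 ± 33.6 CPM in Sham and 167 ± 26.5 in TAC and did not pass (log2 0.06 ± 0.16, 95% interval -0.30 to 0.42, adjusted p = 0.844).

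The miR-146 pair, known for damping signalling downstream of Toll-like receptors, shares a seed. miR-146b-5p was at 76.9, 75.5, 69.2, 47.7 and 61.0 CPM in Sham and at 409, 94.1, 168, 309 and 124 CPM in TAC. It rose 3.34-fold (log2 1.74 ± 0.37, adjusted p = 0.00686), with no overlap but a wide spread, TAC 1 being the highest and TAC 2 the lowest. miR-146a-5p was at 320 to 443 CPM in Sham and 388 to 699 CPM in TAC and did not pass (log2 0.31 ± 0.17, adjusted p = 0.246). Whether the 2 effects differ from each other was not tested.

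miR-221-3p and miR-222-3p, regulators of the cell cycle inhibitor p27 made from neighbouring hairpins on chromosome X (chrX:19146294-19146971), rose 1.68-fold and 1.77-fold (adjusted p = 0.00307 and 0.00544). miR-221-3p was at 408, 545, 407, 448 and 361 CPM in Sham and at 905, 653, 764, 657 and 656 CPM in TAC, so the groups did not overlap.

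The 3 tested microRNAs with the seed ACCCGUA, a family known to target the growth kinase mTOR, all rose by similar factors, beside 14.8% higher over all microRNAs. miR-99a-5p rose 1.52-fold from 962 ± 104 to 1465 ± 278 CPM, miR-99b-5p 1.51-fold from 1958 ± 187 to 2960 ± 294 CPM, and miR-100-5p 1.49-fold from 509 ± 59.4 to 756 ± 38.2 CPM. In each of the 3 every TAC heart was above every Sham heart (adjusted p = 0.00957, 0.0023 and 0.00244).

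Of the 6 microRNAs tested with the seed AGCAGCA, the miR-15/16 family, which holds back cell division, 2 rose, beside 14.8% higher over all microRNAs. Both came from a locus on chromosome 11 (chr11:70234717-70235135). miR-195a-5p was at 453, 334, 440, 345 and 375 CPM in Sham and at 576, 669, 771, 822 and 564 CPM in TAC (1.75-fold, log2 0.81 ± 0.14, adjusted p = 0.0023). Its passenger strand miR-195a-3p rose 1.64-fold. miR-497a-5p rose 1.81-fold (log2 0.86 ± 0.24, adjusted p = 0.0301), but TAC 1, at 216 CPM, lay below every Sham heart and the other TAC hearts were at 502 to 663 CPM. That call was lost when any 1 library other than TAC 1 was left out (up to 0.0981). Of the 9 let-7 guide strands, let-7e-5p and let-7i-5p rose by 0.48 and 0.36 on the log2 scale, beside 14.8% called higher over all microRNAs. The list had 0 higher and 3 lower with upper-quartile scaling, and 1 higher and 1 lower with DESeq2. The call of let-7e-5p was lost without Sham 1, Sham 4, TAC 2, TAC 3 or TAC 4 (up to 0.0813) and that of let-7i-5p without any 1 of the libraries other than TAC 2 (up to 0.155), and the median of the list, 0.12, was -0.06 with upper-quartile scaling and -0.01 in the fit with all 21 libraries.

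Taking the reported direction in cardiac hypertrophy as the list, 20 of 30 tested microRNAs reported as raised rose and none fell, beside 14.8% higher over all microRNAs, with a median log2 fold change of 0.89. The 20 include miR-208b-5p, which entered the test through its TAC counts alone. Those that did not pass included miR-132-3p, a regulator of the autophagy factor FoxO3 (236 ± 30.7 CPM in Sham, 354 ± 122 in TAC, log2 0.59 ± 0.22, adjusted p = 0.085), and its hairpin neighbour miR-212-5p (log2 0.67 ± 0.30, adjusted p = 0.154). None of the 4 tested strands of miR-212 and miR-132 passed with edgeR or DESeq2, and 2 had an unadjusted p under 0.05, while for the 9 of the miR-17-92 cluster, known from cell proliferation, all 3 counts were 0. miR-155-5p, a microRNA of activated leukocytes on the same list, was at 93.0 to 111 CPM in Sham and 69.3 to 94.2 CPM in TAC and did not pass either (log2 -0.33 ± 0.11, adjusted p = 0.0559). It passed as lower with RLE and upper-quartile scaling, with DESeq2, among microRNAs of at least 10 CPM and without Sham 5, so that 1 member of the list fell in those fits, and miR-132-3p passed as higher without TAC 5. Of 24 reported as lowered 5 fell and none rose, beside 4.54% lower over all microRNAs, 23 had a negative log2 fold change, and the median was -0.35. That count of 5 was 2 without Sham 1, 2 or 3 or TAC 3 or 4, 3 without Sham 4, 1 with ear tag range as a covariate, 0 in the fit of all 21 libraries, and 12 with upper-quartile scaling. The members of both lists were chosen from published directions with results of these data known, so their directions are not independent evidence.

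**Figure D5:**
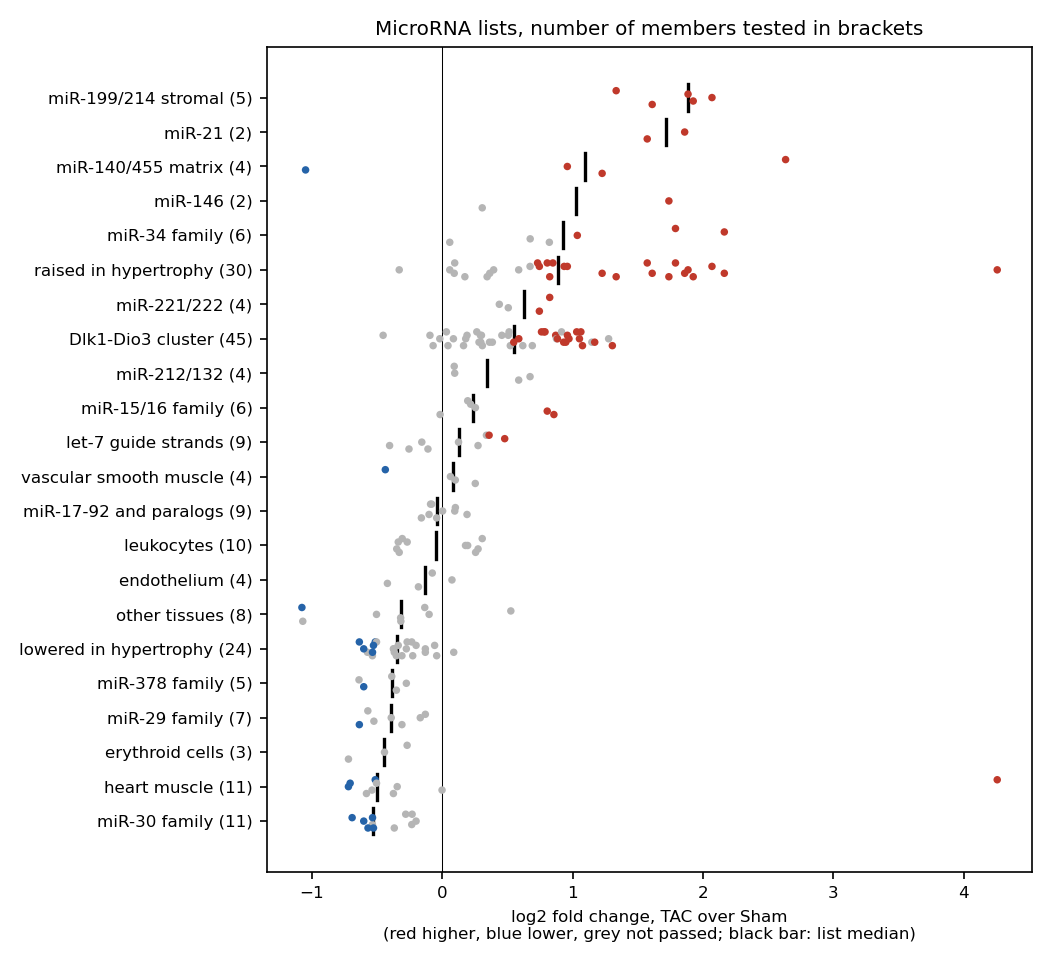
Each row is a list of microRNAs with the number tested in brackets; points give the log2 fold change of each member (red higher, blue lower, grey not passed) and black bars the median of the list. miR-208b-5p, with no count in Sham, is not drawn. The lists range from the miR-199 and miR-214 group, with a median of 1.89, to the miR-30 family, with a median of -0.53.

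The clearest family among the lower microRNAs was miR-30, abundant in heart muscle and known to act on the fibrosis factor CTGF. Of its 11 tested strands 5 fell, beside 4.54% over all microRNAs, none rose and all 11 had a negative log2 fold change (median -0.53). miR-30e-5p was at 31724, 22704, 25860, 26002 and 24651 CPM in Sham and at 22102, 17652, 14376, 16353 and 20325 CPM in TAC. All TAC hearts were below all Sham hearts, by a small margin between TAC 1 and Sham 2 (1.44-fold, log2 -0.53 ± 0.14, adjusted p = 0.0179). miR-30c-1-3p fell by 0.69 ± 0.13 from 103 ± 9.99 to 64.0 ± 10.01 CPM (adjusted p = 0.0032). Its guide strand miR-30c-5p was at 12735, 11295, 13339, 12694 and 11763 CPM in Sham and at 4903, 9725, 7957, 7555 and 10568 CPM in TAC (log2 -0.60 ± 0.18, adjusted p = 0.037). TAC 1 was the lowest heart here although it was the highest TAC heart for miR-30e-5p.

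Mir30c-1 and Mir30e share introns of Nfyc, a subunit of the transcription factor NF-Y, on chromosome 4 (chr4:120769534-120772697, minus strand), and all 4 strands assigned to them fell. miR-30c-5p is also encoded by Mir30c-2 on chromosome 1, so its fall cannot be assigned to this locus. The other strands called were miR-30e-3p (log2 -0.54) and miR-30c-2-3p (log2 -0.57), the latter from a hairpin on chromosome 1. The most abundant relative with the same seed, miR-30a-5p, did not pass (39099 ± 5381 CPM in Sham, 34009 ± 7988 in TAC, log2 -0.20 ± 0.16, adjusted p = 0.418). Leaving out libraries removed several of these calls: that of miR-30c-5p without any 1 of Sham 1 to 5, TAC 3 or TAC 4 (adjusted p up to 0.106), that of miR-30e-3p without Sham 1 to 4, TAC 3 or TAC 4 (up to 0.074), and that of miR-30c-2-3p without Sham 3 or TAC 3 (up to 0.0579). The family count of 5 was 2 without Sham 3 or TAC 3, 3 without Sham 1, 2 or 4 or TAC 4, 1 with ear tag range as a covariate, where miR-30e-5p also lost its call, 0 in the fit of all 21 libraries, and 9 with upper-quartile scaling.

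In the miR-29 family, whose targets include fibrillar collagens, 1 of 7 strands fell, beside 4.54% lower over all microRNAs. All 7 had a negative log2 fold change, with a median of -0.39 against 0.05 over all microRNAs. miR-29c-3p was at 818, 589, 737, 791 and 695 CPM in Sham and at 355, 534, 426, 468 and 553 CPM in TAC, with no overlap (1.55-fold, log2 -0.64 ± 0.14, adjusted p = 0.00862). miR-29a-3p, the most abundant member, was at 4876 to 5669 CPM in Sham and 2693 to 4848 CPM in TAC and did not pass (log2 -0.31 ± 0.15, adjusted p = 0.193), but passed as lower with upper-quartile scaling, which gave 3 lower strands in the family. miR-29b-3p was at 84.6 ± 9.33 CPM in Sham and 77.3 ± 23.7 in TAC (log2 -0.13 ± 0.21, adjusted p = 0.736). The family count of 1 was 0 with a replicate block and in the fit of all 21 libraries. It was 2 among microRNAs of at least 10 CPM and without Sham 4.

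The miR-378 family, of which miR-378a lies in the metabolic coactivator gene Ppargc1b, had 1 of 5 members called, beside 4.54% lower over all microRNAs. This was miR-378c, at 1264 to 1523 CPM in Sham and 786 to 1129 CPM in TAC (log2 -0.60 ± 0.11, adjusted p = 0.00308). The near-identical miR-378a-3p (45168 ± 3125 CPM in Sham, 35377 ± 5683 in TAC, adjusted p = 0.062) and miR-378b (adjusted p = 0.0547) did not pass and reads can be shared among the 3. The count of 1 was 3 with RLE, upper-quartile or no scaling factors, with DESeq2 and limma-voom, among microRNAs of at least 10 CPM, and without Sham 5, TAC 1 or TAC 2. It was 0 in the fit of all 21 libraries. Reads may likewise be shared within the miR-30, miR-29 and let-7 families.

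The lower microRNA with the smallest p was miR-338-3p, from an intron of the kinase gene Aatk (chr11:120014765-120014862). It was at 85.7, 67.9, 98.7, 100 and 74.8 CPM in Sham and at 52.6, 54.2, 49.9, 41.5 and 53.5 CPM in TAC (1.70-fold, log2 -0.76 ± 0.14, adjusted p = 0.0023), without overlap. miR-9-5p, a microRNA known from neurons, was at 22.8, 19.1, 32.3, 35.4 and 19.3 CPM in Sham and at 18.2, 13.2, 10.6, 10.98 and 8.09 CPM in TAC (2.11-fold, log2 -1.08 ± 0.25, adjusted p = 0.00963), and passed under every alternative tried. miR-135a-5p fell by 0.87 ± 0.18 (adjusted p = 0.00622) and miR-1964-3p by 0.57 ± 0.13 (adjusted p = 0.00963), both at low levels. miR-874-3p (log2 -0.71, adjusted p = 0.0174) lost its call without Sham 3 (0.0633), and miR-139-3p (log2 -0.62, adjusted p = 0.038) without Sham 1 to 4 or TAC 5 (up to 0.0697).

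The most abundant microRNA of the Sham hearts, miR-22-3p, took 18.8% ± 1.25 of the counts in Sham and 16.6% ± 2.25 in TAC (SD, n = 5) and did not pass (log2 -0.21 ± 0.10, 95% interval -0.44 to 0.02, adjusted p = 0.197). miR-133a-3p followed with 13.8% ± 0.838 and 10.9% ± 3.15, miR-486b-5p with 10.5% ± 1.121 and 10.1% ± 2.16 and miR-143-3p with 7.78% ± 0.917 and 9.32% ± 2.12. None of these 4 passed in the main fit. miR-22-3p passed as lower with upper-quartile scaling, with DESeq2 and among microRNAs of at least 10 CPM (adjusted p down to 0.0259), and miR-133a-3p in the last of these.

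The TAC hearts differed among themselves. Of the 75 higher microRNAs the highest TAC heart was TAC 3 for 31, TAC 4 for 19, TAC 1 for 17, TAC 5 for 5 and TAC 2 for 3. The lowest was TAC 2 for 27, TAC 5 for 20, TAC 1 for 17, TAC 4 for 10 and TAC 3 for 1. Of the 23 lower microRNAs the lowest TAC heart was TAC 4 for 9, TAC 1 for 8, TAC 5 for 5 and TAC 3 for 1. TAC 2 and TAC 5 thus lay closest to Sham for most of the higher set, while TAC 1 combined the highest miR-127-3p and miR-146b-5p with the lowest miR-499-5p, miR-30c-5p and miR-29c-3p. Counts of TAC 1 differed from other TAC libraries by a chi-square of 749 to 947 per degree of freedom, and those from one another by 126 to 587. The 3p to 5p ratio of miR-151, picked after its values were seen, was 4.03 in TAC 1 and 1.43 to 1.77 elsewhere. For miR-214 it was 3.13, within the range elsewhere. Whether the extremes of TAC 1 belong to the heart or to the library was not tested.

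Markers of other cell types were read beside these results. Of 10 leukocyte microRNAs none passed in the main edgeR fit and 1 had an unadjusted p under 0.05. With DESeq2, RLE or upper-quartile scaling, and without Sham 5, 1 was lower, and without TAC 1, 1 was higher. Their summed level was 2636 to 2966 CPM in Sham and 2203 to 3118 CPM in TAC. miR-142a-3p was at 597 ± 62.7 and 712 ± 219 CPM and miR-223-3p at 95.3 ± 21.1 and 109 ± 17.9 CPM. Of 4 endothelial microRNAs none passed in the main edgeR fit or with DESeq2, and 0 had an unadjusted p under 0.05. miR-126b-5p passed as lower with upper-quartile scaling, among microRNAs of at least 10 CPM and without TAC 4 (edgeR, adjusted p down to 0.0257). The endothelial sum was 31111 to 42143 CPM in Sham and 27525 to 44392 CPM in TAC, with miR-126a-3p at 8596 ± 1124 and 7571 ± 1202 CPM. Of the 3 erythroid microRNAs none passed in either fit and 0 had an unadjusted p under 0.05. Their sums were 440 to 1339 CPM in Sham and 449 to 1146 CPM in TAC, with miR-451a at 645 ± 236 and 535 ± 225 CPM.

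Of 4 smooth muscle microRNAs 1 was called, beside 4.54% lower over all microRNAs. This was miR-145a-3p, which fell by 0.44 ± 0.14 (adjusted p = 0.0458), a call lost when any 1 library other than Sham 2 or TAC 5 was left out (up to 0.134). The sum of the 4 was 69923 to 100871 CPM in Sham and 73964 to 146215 CPM in TAC, the highest in TAC 1, where miR-143-3p was at 145661 CPM. The medians of the smooth muscle and leukocyte lists were small, and their signs turned between settings. They were 0.08 for smooth muscle and -0.09 with upper-quartile scaling, and -0.05 for leukocytes and 0.04 with limma-voom. The endothelial median was -0.13, and -0.32 with upper-quartile scaling, and the erythroid median was -0.44. Of 8 microRNAs of other tissues tested, miR-9-5p alone passed in the main fit, beside 4.54% lower over all microRNAs, and with DESeq2 4 were lower. The neuronal miR-124-3p was at 0 in all 10 libraries and the liver microRNA miR-122-5p had 72 counts in them together. The stromal list of miR-199 and miR-214 was the marker list whose summed level did not overlap between the groups and whose members all passed, and its part in the other results was not tested.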

How the data were processed

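Small RNA libraries of left ventricle were measured as whole read counts for each mature microRNA, which the authors deposited in 1 table without normalization. Per the submitters' processing notes, the tools included DESeq 1.26.0, Bowtie 1.1.1, cutadapt 1.8 and CASAVA 1.8.4, with no roles stated. The genome build is not given in the sources used here. The table has 25958 lines, of which 24055 (92.67%) carry neither a name nor a count, and 12 names that join near-identical microRNAs. The smallest value above 0 is 2.

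The 5 Sham and 5 TAC libraries, grouped by the surgery and drug labels, were fitted alone with edgeR 4.0.16 (R 4.3.3): filterByExpr by group, TMM factors, the robust quasi-likelihood F test and Benjamini-Hochberg adjustment over 507 microRNAs, with adjusted p under 0.05 called. Standard errors are the log2 fold change over the root of F. The script was tested on simulated counts. Library totals, microRNAs with a count and the share of the 10 most abundant were compared by exact permutation. Alternatives were RLE, upper-quartile and no scaling factors, DESeq2 1.42.0, limma-voom 3.58.1, a non-robust fit, no filter, a mean of at least 10 CPM, all 21 libraries in a 4-group fit, a replicate block, ear tag range as a covariate, and leaving out each library. No pair of libraries agreed within counting noise.

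Hairpin positions and sequences come from the RefSeq microRNA table, and host genes, with their exons and introns, from GENCODE vM21. Neighbours lie within 10 kb on 1 strand. The text names the 15 higher and 15 lower called microRNAs of at least 10 CPM with the smallest p, the 5 most abundant in Sham, a set of fixed names, 2 members of each list, 2 with no count in 1 group, and members of the seed, hairpin and neighbour groups. The comparison, the lists and the fixed names were chosen with earlier results of these data known.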

Additional observations from a re-analysis of the deposited data

Results flagged for a closer look

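Of 142 groups of 5 libraries examined for the named microRNAs, 4 held a library whose gap to the nearest other exceeded 0.71 of the range of the group, Dixon's 95% critical value; chance gives about 1 such group in 20. miR-155-5p was at 93.0 CPM in Sham 5, and at 109 to 111 CPM in the other Sham libraries. miR-29a-3p was at 2690 CPM in TAC 1, and at 4280 to 4850 CPM in the other TAC libraries. miR-143-3p was at 146000 CPM in TAC 1, and at 73000 to 92500 CPM in the others. miR-30a-5p was at 48400 CPM in Sham 1, and at 35300 to 39000 CPM in the other Sham libraries.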

How the results depend on the processing

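All 98 called microRNAs kept their direction under every setting in which they were tested. Of 98 named or grouped microRNAs followed through all settings 72 were called: 52 kept the call without each 1 library in turn, 43 kept it under every other alternative but the 4-group fit, and 11 under all of them. Without single libraries the higher calls numbered 56 to 74 and the lower 11 to 26. Against 75 and 23, lower calls numbered 40 with RLE factors, 62 with upper-quartile scaling, 50 with DESeq2 and 44 at a mean of at least 10 CPM. The fit of all 21 libraries, which shares 1 estimate of spread with the drug groups, gave 12 higher and 1 lower calls. Ear tag range as a covariate gave 56 higher and 9 lower; TAC 3, alone in its range, then gives no information. Deviations of same-numbered libraries correlated at -0.07, -0.06, 0.13, 0.02 and -0.27. No shared deviation was thus seen, though these few values cannot settle whether the numbers pair the mice. A replicate block gave 53 higher and 11 lower calls, and miR-208b-5p and miR-7689-3p did not pass in it (edgeR, adjusted p = 0.166 and 0.137). Among the 98 followed, those that changed sign, both uncalled, were miR-486b-5p to 0.0543 with the ear tag covariate and miR-29b-3p to 0.0341 without TAC 1. The share of the 10 most abundant microRNAs differed by -1.69 percentage points, and by -2.147 to -1.252 without single libraries (exact permutation, adjusted p = 0.0476 without TAC 5); that of the 20 most abundant differed by -2.69 (exact permutation p = 0.00794, the smallest possible, adjusted 0.02381). The causes of these shifts were not tested. Depth limits microRNAs near 1 CPM, where 3 counts reach 0.797 CPM in Sham 4.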

Other observations

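One microRNA stood out among those that did not pass, and was chosen after its values were seen. miR-3963 had 2329, 1921, 2114, 1966 and 2378 counts in Sham 1 to 5, and 0 in TAC 1, 2, 3 and 5, but 2111 counts in TAC 4. Its fitted log2 fold change was -3.02 with an adjusted p of 0.268 (edgeR). In the drug groups of the study it was at 0 in 4 of 5 libraries with the phosphodiesterase 5A inhibitor and in 1 of 6 with the phosphodiesterase 9A inhibitor, and otherwise between 396 and 2289 counts. Counts that were either 0 or high also occurred in both groups: let-7f-2-3p was at 0 in Sham 4 and TAC 5 and at 334 to 551 counts in the other 8 libraries, and miR-1964-5p had 532, 929 and 410 counts in Sham 2, Sham 4 and TAC 5 and 0 in the other 7. Of the 17 microRNAs with this pattern 6 were tested.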
